A study of Mus musculus with 4 samples.

Results

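The 10 genes described here are the non-imprinted CDK inhibitors Cdkn1a, Cdkn1b, Cdkn2a, Cdkn2b, Cdkn2c and Cdkn2d and the G1 cyclins Ccnd1, Ccnd2, Ccnd3 and Ccne1, set beside the imprinted inhibitor Cdkn1c. They were chosen by name, out of 55602 genes in the deposited bulk count table, and all 10 were among the 19995 genes with enough counts to be tested. RNA was sequenced from JB1 embryonic stem cells, a hybrid line with a JF1 mother and a C57BL/6 (B6) father, after 12 days of neural differentiation with 1 µM cyclopamine, an inhibitor of Sonic hedgehog. The 4 libraries were 2 of wild-type JB1 cells and 2 of the JB1-derived Zfp57-/- line. Both genotypes therefore share the hybrid background, the medium, the cyclopamine and the time, and each genotype is a single line, so that Zfp57 loss and other differences between the lines cannot be told apart. The samples of a genotype are called biological duplicates by the study, without naming the cultures. The p-values rest on the spread between such duplicates, which the test moderates for each gene with that of all genes tested.

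Cells commit to a round of division in G1, when D-type cyclins with CDK4 or CDK6, and then cyclin E with CDK2, phosphorylate the retinoblastoma proteins and release E2F factors. Inhibitors of the INK4 family (the Cdkn2 genes) block CDK4 and CDK6 only, whereas those of the Cip/Kip family (the Cdkn1 genes) bind cyclin-CDK complexes more widely. Neural progenitors lengthen G1 and raise Cip/Kip inhibitors as they leave the cycle to become neurons, while pluripotent stem cells have a short G1 with much cyclin E. Cdkn1c (p57Kip2) is a maternally expressed imprinted gene, controlled by the methylated region of Kcnq1ot1, and ZFP57 is the zinc finger protein that keeps such imprinting control regions methylated.

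The libraries held between 7663520 and 10337082 gene counts. Counts were scaled per library by TMM, a scaling that assumes that most genes are unchanged, and are called normalized counts below. Reads of Zfp57 itself were still counted in the mutant cells, where counts per gene do not show which part of the transcript they cover, at 455 and 223 normalized counts in wild-type against 159 and 138 in the Zfp57-/- libraries. Its allelic reads in the mutant libraries, 82 and 76, were all from the B6 allele, with a 95% Wilson interval of 0 to 0.0237 for the pooled JF1 share. Markers of the labelled cell type were present in both genotypes but not at one level. Of 8 neural progenitor markers 6 were lower in Zfp57-/- cells, beside 14.6% of all genes tested, and the other 2 did not pass the test. The summed level of the 8 was 1554 and 1782 CPM (counts scaled to a common library total) in wild-type against 1129 and 1143 in mutant cells. All 8 markers of pluripotent cells were higher in Zfp57-/- cells, beside 13% of all genes, at 4.21 and 8.01 against 1297 and 1132 CPM in sum. Of 9 neuron markers 7 were lower, beside 14.6% of all genes, at 1502 and 1873 against 213 and 168 CPM. These bulk values cannot tell a change in the number of cells of a type from a change in RNA per cell, and the part of this difference in makeup in the results below was not tested. The wild-type replicates also differed more from each other than the Zfp57-/- replicates, with a chi-square per degree of freedom of 35.0 against 7.01, so that every member is given in each library.

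Between genotypes, 7 of the 10 genes passed the threshold of an adjusted p of 0.05, of which 3 were higher and 4 lower in Zfp57-/- cells. Among all genes tested, 27.6% passed, 13% as higher and 14.6% as lower. Cdkn2a, Cdkn2b and Ccne1 rose, and Cdkn1b, Cdkn2c, Ccnd1 and Ccnd2 fell. The replicates of the genotypes did not overlap for 9 of the 10, against 66.3% of all genes tested. The median log2 fold change of the members was -0.02, beside -0.01 for all genes, and both the inhibitors and the cyclins had members that rose and members that fell.

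**Figure D1:**
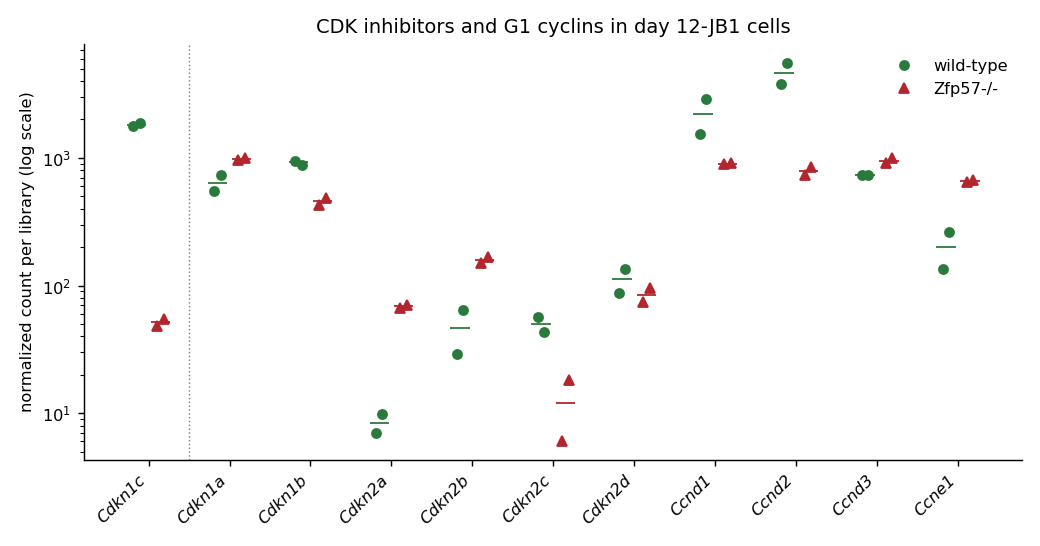
Normalized count in each library on a log axis for Cdkn1c and the 10 members, with circles for wild-type, triangles for Zfp57-/- and a line at each mean (n = 2). The genotypes are apart for every gene except Cdkn2d, and Cdkn1c shows the widest gap.

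Cdkn1c, at chr7:143458339-143461050 (GRCm38), is the reference for the other inhibitors. It had 1768 and 1871 normalized counts in the wild-type libraries and 48.3 and 54.6 in the Zfp57-/- libraries. Its level was 35.3-fold lower in Zfp57-/- cells, and edgeR gave a log2 fold change of -5.14 ± 0.23 (SE) with an adjusted p of 1.71e-06. It lies 1469 kb from Ccnd1, a member on the same chromosome.

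Of the non-imprinted Cip/Kip genes, Cdkn1b was lower and Cdkn1a was not called. Cdkn1b (chr6:134920401-134925513) encodes p27Kip1, which holds cyclin E-CDK2 inactive in resting cells. It had 954 and 887 normalized counts in wild-type against 429 and 482 in Zfp57-/- libraries. The 2.02-fold lower level was outside the spread of the replicates (log2 fold change -1.01 ± 0.19 SE, adjusted p 0.00353). Without Zfp57-/- replicate 1 the change was -0.93 and no longer passed the threshold, with an adjusted p of 0.109. Cdkn1a (chr17:29090976-29100727) encodes p21, the inhibitor through which p53 arrests cells in G1. It had 549 and 734 normalized counts in wild-type against 966 and 995 in Zfp57-/- libraries, so both mutant libraries were above both controls. Its log2 fold change of 0.61 ± 0.21 (SE, 95% interval 0.15 to 1.07) had an adjusted p of 0.051, just outside the threshold. The call therefore depends on the setting: Cdkn1a passed in 7 of 13 alternatives, and with Actb as the scale its log2 fold change was -0.0048. The 7 include both fits without a wild-type library, in which the Zfp57-/- libraries alone supply the spread.

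Summed per length, the Cip/Kip total was lower in Zfp57-/- cells, whereas the sum of its non-imprinted genes overlapped between the genotypes, except with Actb as the scale. In CPM per kb of exon, a scale that lets genes be added, the 3 genes summed to 131 and 141 in wild-type and to 41.6 and 44.0 in Zfp57-/- libraries, a 3.18-fold lower total. Cdkn1a and Cdkn1b alone, a sum chosen after the values were seen, gave 38.8 and 42.8 in wild-type against 39.0 and 41.2 in Zfp57-/- libraries, which overlap. As a percentage of the Actb level, however, this sum was 5.74% and 3.19% in wild-type against 2.78% and 2.75% in Zfp57-/- libraries, which do not. Cdkn1c made up 70.0% ± 0.62 (SD, n = 2) of the family in wild-type cells against 6.28% ± 0.29 in Zfp57-/- cells. The leading place passed to Cdkn1a, which went from 14.1% ± 2.2 to 68.8% ± 1.3. Cdkn1b took 15.9% ± 1.6 and 24.9% ± 1.0. The level of Cdkn1a over that of Cdkn1b was 0.737 and 1.06 in wild-type libraries and 2.88 and 2.65 in Zfp57-/- libraries.

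**Figure D2:**
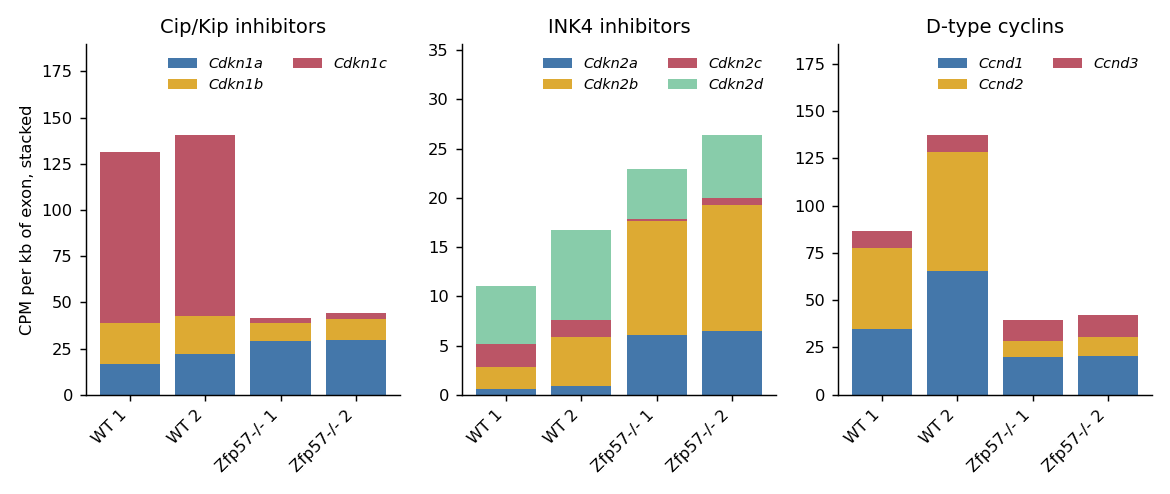
Stacked length-scaled levels (CPM per kb of exon) in each library for the Cip/Kip inhibitors, the INK4 inhibitors and the D-type cyclins, each panel with its own axis from 0. The Cip/Kip and D-type cyclin totals are lower in both Zfp57-/- libraries and the INK4 total is higher, although as a percentage of Actb the INK4 totals of the genotypes overlap.

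The reference holds a promoter window, from 250 bases before to 50 after a transcription start, for 8 of the 10 members, in 12 windows (RefSeq, GRCm38.p6). Ccnd1, Ccnd2 and Cdkn1c have none there. The windows were searched on both strands for the p53 full site, which is a pair of adjacent consensus decamers, with at most 1 mismatch outside their cores. They were also searched for the E2F octamers TTTCCCGC, TTTCGCGC, TTTGCCGC and TTTGGCGC and for the ZFP57 hexamers TGCCGC and GGCCGC. The octamer TTTGCCGC contains the hexamer TGCCGC. The p53 site occurs in 0.0548% of all 32851 windows, an E2F octamer in 2.26% and a ZFP57 hexamer in 26.8%. Among the windows of the members, 1 of 12 held the p53 site, at the upstream start of Cdkn1a, a gene that p53 is known to activate. That window is shown with the site in capitals:
Cdkn1a, upstream start (chr17:29090729-29091028, + strand): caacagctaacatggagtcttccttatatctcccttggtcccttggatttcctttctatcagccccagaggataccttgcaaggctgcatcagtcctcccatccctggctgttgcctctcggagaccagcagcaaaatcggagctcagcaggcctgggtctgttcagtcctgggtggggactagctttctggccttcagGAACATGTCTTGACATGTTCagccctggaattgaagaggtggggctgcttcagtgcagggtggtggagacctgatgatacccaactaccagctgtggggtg

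The INK4 family was divided, with its chromosome 4 neighbours Cdkn2a and Cdkn2b higher, Cdkn2c lower and Cdkn2d not called. Cdkn2a (chr4:89274471-89294653) encodes p16Ink4a and, from an upstream first exon, the p53 activator p19Arf, and counts per gene do not separate these transcripts. Its counts were 6 and 11 in wild-type against 66 and 74 in Zfp57-/- libraries, or 6.96 and 9.84 against 66.4 and 70.9 after normalization. Despite the low counts in wild-type cells, the libraries of the genotypes were far apart, with a log2 fold change of 3.00 ± 0.49 (SE) and an adjusted p of 0.00166. Cdkn2b (chr4:89306299-89311039), which lies 11.6 kb away, encodes p15Ink4b, an inhibitor induced by TGF-beta. It had 29.0 and 64.4 normalized counts in wild-type against 151 and 167 in Zfp57-/- libraries. Its wild-type replicates differed 2.22-fold. The log2 fold change of 1.74 ± 0.38 (SE, adjusted p 0.00758) became 1.27 without wild-type replicate 1 and 2.44 without wild-type replicate 2. In these fits the Zfp57-/- libraries alone supply the spread. The genes share a similar exon, so reads that align to both places were left out by the unique alignment and the division of the rest between them is uncertain.

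Cdkn2c and Cdkn2d encode p18Ink4c and p19Ink4d, the members of the family that developing neural tissue is known to use. Cdkn2c (chr4:109660876-109667189) had 56.9 and 42.9 normalized counts in wild-type against 6.03 and 18.2 in Zfp57-/- libraries. The level was 4.06-fold lower, with a log2 fold change of -2.02 ± 0.60 (SE) and an adjusted p of 0.0315. This call rests on Zfp57-/- replicate 1: without it the log2 fold change was -1.44 and the adjusted p 0.307, and without Zfp57-/- replicate 2 the change was -3.01. Cdkn2d (chr9:21288410-21291407) had 88.2 and 135 normalized counts in wild-type against 74.4 and 94.8 in Zfp57-/- libraries. These ranges overlap, and its log2 fold change of -0.40 ± 0.32 (SE) had a 95% interval from -1.13 to 0.32 and an adjusted p of 0.388, passing only without wild-type replicate 1 (-0.70, adjusted p 0.023), a fit in which the Zfp57-/- libraries alone supply the spread.

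Within the INK4 family the leading gene changed from Cdkn2d to Cdkn2b. Per length, Cdkn2d made up 54.3% ± 0.67 (SD, n = 2) of the family in wild-type against 23.2% ± 1.6 in Zfp57-/- cells, while Cdkn2b went from 24.8% ± 6.7 to 49.5% ± 1.5. Cdkn2a went from 5.54% ± 0.25 to 25.4% ± 1.4, and Cdkn2c from 15.3% ± 7.2 to 1.89% ± 1.2. In sum, the 4 genes reached 11.1 and 16.7 CPM per kb in wild-type against 22.9 and 26.4 in Zfp57-/- libraries, without overlap, but 1.64% and 1.24% against 1.63% and 1.76% of the Actb level, which overlap. The whole INK4 family thus stood below Cdkn1a alone in each Zfp57-/- library, at 29.0 and 29.9 CPM per kb.

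Cdkn2a has a start for each of its products, and the windows of both are shown because the gene rose the most of the 10. The upstream start, that of p19Arf, held 1 E2F octamer, the only 1 among the 12 windows, and 1 ZFP57 hexamer, and both are in capitals. The downstream start, that of p16Ink4a, held none of the motifs. The upstream window had 45 CG dinucleotides and the downstream window 12. A match in these letters describes the window and was not tied to binding.
Cdkn2a, upstream start (chr4:89294570-89294869, - strand): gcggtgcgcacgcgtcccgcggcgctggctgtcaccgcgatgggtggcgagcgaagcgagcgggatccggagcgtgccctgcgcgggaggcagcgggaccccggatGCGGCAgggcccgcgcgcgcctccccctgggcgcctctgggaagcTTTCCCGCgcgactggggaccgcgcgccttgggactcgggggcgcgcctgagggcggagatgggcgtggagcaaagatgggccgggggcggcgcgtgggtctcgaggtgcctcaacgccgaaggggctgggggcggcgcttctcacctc
Cdkn2a, downstream start (chr4:89282143-89282442, - strand): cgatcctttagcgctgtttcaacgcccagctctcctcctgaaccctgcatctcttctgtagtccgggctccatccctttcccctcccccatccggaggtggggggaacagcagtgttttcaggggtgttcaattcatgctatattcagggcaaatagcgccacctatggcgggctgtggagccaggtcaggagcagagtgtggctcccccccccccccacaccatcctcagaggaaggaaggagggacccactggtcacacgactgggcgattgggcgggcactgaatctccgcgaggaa

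Of the D-type cyclins, Ccnd2 and Ccnd1 fell and Ccnd3 was not called. Ccnd2 (chr6:127125162-127152193) encodes cyclin D2, the D-type cyclin of cortical basal progenitors. It had 3771 and 5551 normalized counts in wild-type against 733 and 852 in Zfp57-/- libraries, the widest gap of the falling members. Its level was 5.88-fold lower, with a log2 fold change of -2.56 ± 0.24 (SE) and an adjusted p of 5.75e-05. Ccnd1 (chr7:144929931-144939925) encodes cyclin D1, the main D-type cyclin of apical neural progenitors. It had 1536 and 2890 normalized counts in wild-type against 888 and 910 in Zfp57-/- libraries. The wild-type replicates differed 1.88-fold. The log2 fold change of -1.30 ± 0.28 (SE, adjusted p 0.00735) became -1.71 without wild-type replicate 1 and -0.78 without wild-type replicate 2. In these fits the Zfp57-/- libraries alone supply the spread.

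Ccnd3 (chr17:47505051-47599691) encodes cyclin D3, which many differentiating cell types use. It had 739 normalized counts in each wild-type library and 904 and 999.955 in the Zfp57-/- libraries. Although the genotypes did not overlap, the log2 fold change of 0.37 ± 0.18 (SE, 95% interval -0.05 to 0.78) had an adjusted p of 0.171. With Actb as the scale it was -0.32, whereas with the gene-length correction it was 0.54 and passed in edgeR (adjusted p 0.0361). Leaving out each library in turn gave 0.30 to 0.44. The summed D-type cyclin level was 86.5 and 137 CPM per kb in wild-type against 39.4 and 42.4 in Zfp57-/- libraries, a 2.74-fold lower total. Ccnd2 went from 47.6% ± 2.5 (SD, n = 2) of this total to 21.9% ± 1.2, and Ccnd3 from 8.46% ± 2.7 to 28.3% ± 0.54. Ccnd1 took 43.9% ± 5.3 and 49.8% ± 1.7. Ccnd2 over Ccnd1 was 1.23 and 0.961 in wild-type against 0.413 and 0.469 in Zfp57-/- libraries.

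Ccne1 (chr7:38097984-38107534) encodes cyclin E1, the partner of CDK2 at the entry to S phase. It had 135 and 264 normalized counts in wild-type against 649 and 671 in Zfp57-/- libraries. The level was 3.29-fold higher in Zfp57-/- cells, opposite in direction to Ccnd1 and Ccnd2, with a log2 fold change of 1.72 ± 0.29 (SE) and an adjusted p of 0.00198. Set against the sum of the D-type cyclins per length, Ccne1 reached 6.23% and 7.70% in wild-type libraries and 65.9% and 63.4% in Zfp57-/- libraries. Its promoter window held 3 matches to the ZFP57 hexamers, more than any other window of the members, and is shown with them in capitals. A pair of these matches overlap. A ZFP57 hexamer was found in 5 of the 12 windows of the members, beside 26.8% of all windows. The other windows with a match were of Cdkn2a, which rose, Cdkn2c, which fell, and Cdkn2d and Ccnd3, which were not called. How often 3 matches occur among all windows was not counted.
Ccne1 start (chr7:38107441-38107740, - strand): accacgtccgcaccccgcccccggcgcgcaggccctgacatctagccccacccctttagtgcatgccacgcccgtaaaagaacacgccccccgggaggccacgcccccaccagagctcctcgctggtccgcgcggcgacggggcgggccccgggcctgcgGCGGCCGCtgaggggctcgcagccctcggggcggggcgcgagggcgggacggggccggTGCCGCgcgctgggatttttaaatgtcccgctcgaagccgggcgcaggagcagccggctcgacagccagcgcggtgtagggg

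With Actb as the scale, the median of all genes moved to -0.68, and Actb itself had 16981 and 33694 normalized counts in the wild-type libraries and 35274 and 37601 in the Zfp57-/- libraries. On that scale Cdkn2a, Cdkn2b and Ccne1 kept their direction but not their calls, with adjusted p of 0.0653, 0.199 and 0.0944. Relative to the shifted median, their log2 differences were 3.12, 1.94 and 1.88. Those of Cdkn1a and Ccnd3 were 0.68 and 0.36 relative to it.

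**Figure D3:**
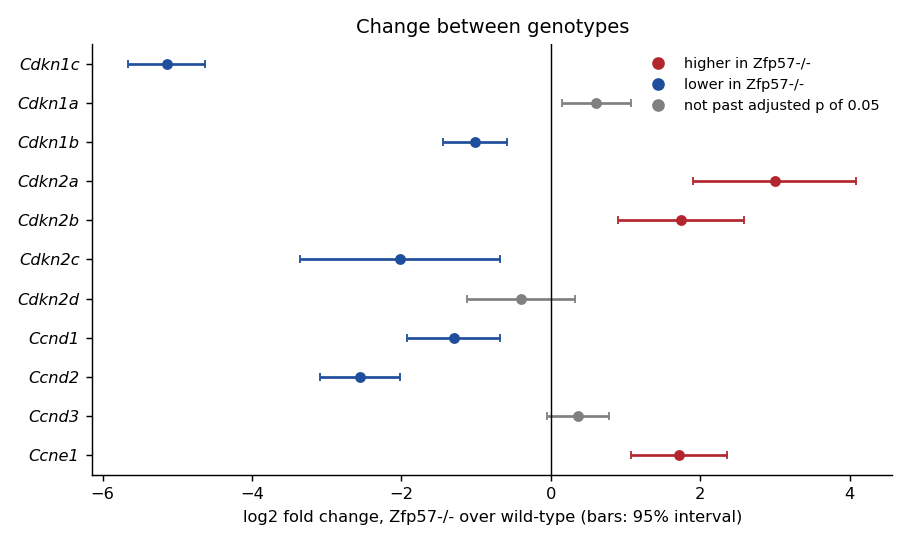
Log2 fold change of Zfp57-/- over wild-type cells for Cdkn1c and the 10 members, with 95% intervals from the edgeR fit (n = 2 against 2). The 3 rising members lie between 1.72 and 3.00 and the 4 falling members between -1.01 and -2.56. With Actb as the scale, which is not drawn, Cdkn1a and Ccnd3 move to the left of 0 but stay above the median of all genes (-0.68).

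Ordered by length-scaled level, the wild-type cells were led by Cdkn1c at 95.2 ± 3.8 CPM per kb (SD, n = 2), then Ccnd2 at 52.8 ± 14 and Ccnd1 at 50.1 ± 22, which overlap. Cdkn1b (21.6) and Cdkn1a (19.2) followed and overlapped each other, as did Ccnd3 (8.98), Ccne1 (7.98) and Cdkn2d (7.56) next to their neighbours. Cdkn2b (3.58) and Cdkn2c (1.98) also overlapped, and Cdkn2a was last at 0.76. In Zfp57-/- cells the order began with Cdkn1a at 29.4 ± 0.63, Ccne1 at 26.4 ± 0.64 and Ccnd1 at 20.4 ± 0.35, whose libraries did not overlap from 1 gene to the next. Cdkn2b (12.2), Ccnd3 (11.6) and Cdkn1b (10.7) then overlapped with their neighbours, Ccnd2 stood at 8.99 and Cdkn2a (6.24) overlapped Cdkn2d (5.73). Cdkn1c, first in wild-type cells, was at 2.69 ± 0.23 and only Cdkn2c, at 0.48 ± 0.34, was lower.

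Reads that overlap strain SNPs were used to ask whether the members were expressed from the JF1 (maternal) or the B6 (paternal) allele. The allelic ratio is JF1/(JF1 + B6), where 0.5 is balanced. All libraries come from the same direction of the cross, so that an excess of JF1 reads by parent and by strain cannot be told apart. Cdkn1b, Ccnd1, Ccne1 and Cdkn2d had no allelic read in the 4 libraries and were not assessed. Cdkn2a had 5 and 35 allelic reads and Cdkn2c 36 and 11 over the wild-type and the Zfp57-/- libraries, too few for the test. The other 4, Cdkn1a, Cdkn2b, Ccnd2 and Ccnd3, were tested among 10977 autosomal genes in an edgeR fit with an allele term per genotype.

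In wild-type cells 3 of the 4 had an allelic bias, beside 23.6% of all genes tested. In Zfp57-/- cells 0 of the 4 had one by edgeR, also at an unadjusted p of 0.05 and by DESeq2, beside 21.8%. Ccnd2 and Cdkn1a were just outside the unadjusted threshold in Zfp57-/- cells, with edgeR p of 0.0537 and 0.0558. The bias differed between genotypes for 2 of the 4, beside 14.5%. Cdkn1a had ratios of 0.682 and 0.674 in wild-type against 0.514 and 0.553 in Zfp57-/- libraries, with 881 and 1553 reads behind them. The log2 JF1 over B6 level was 1.07 ± 0.12 (SE, adjusted p 5.93e-12) in wild-type against 0.20 ± 0.10 (adjusted p 0.169) in Zfp57-/- cells. The difference of -0.87 ± 0.16 had an adjusted p of 8.05e-06. The B6 allele was 2.53-fold and the JF1 allele 1.38-fold higher in Zfp57-/- cells. The 15 nearest tested genes had median ratios averaging 0.546 in wild-type against 0.477 in Zfp57-/- cells, and Zfp57 itself lies 7900 kb from Cdkn1a on chromosome 17.

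Cdkn2b had ratios of 0.909 and 0.786 in wild-type against 0.579 and 0.563 in Zfp57-/- libraries. Only 53 reads stand behind the wild-type values, whose pooled share had a 95% Wilson interval from 0.686 to 0.894, against 226 reads and 0.506 to 0.634 in Zfp57-/- cells. These intervals cover counting error only. The JF1 bias of wild-type cells had a log2 JF1 over B6 level of 2.10 ± 0.50 (SE, adjusted p 0.000544), and of 2.24 by DESeq2 (adjusted p 0.0266). Without wild-type replicate 2, which left 10 JF1 reads and 1 B6 read, the bias was 3.19 and its call did not hold. The difference between genotypes was -1.69 ± 0.58 with an adjusted p of 0.0329. The call of the difference was lost in 5 of 8 alternatives that could test it, while its direction held in all 8. It was -1.83 (adjusted p 0.377) by DESeq2, -1.45 (0.205) without wild-type replicate 1 and -2.77 (0.188) without wild-type replicate 2. The B6 allele had 1.16 and 8.05 normalized counts in wild-type against 45.3 and 49.8 in Zfp57-/- libraries. The JF1 allele had 11.6 and 29.5 against 62.4 and 64.2. Both alleles were thus higher in Zfp57-/- cells in every library.

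Ccnd2 and Ccnd3 were near balance in both genotypes. Ccnd2 ratios were 0.447 and 0.469 in wild-type against 0.497 and 0.434 in Zfp57-/- libraries, a wild-type bias to B6 of -0.24 ± 0.07 (SE, adjusted p 0.00648) that was lost by DESeq2 (adjusted p 0.33) and without wild-type replicate 1 (0.296) or replicate 2 (0.0729). In mean level its JF1 allele was 6.04-fold and its B6 allele 6.12-fold lower in Zfp57-/- cells, and the difference in bias was 0.02 ± 0.13 (adjusted p 0.961). Ccnd3 ratios ran from 0.463 to 0.511 over the 4 libraries. In contrast, Cdkn1c went from 0.991 and 0.999 in wild-type to 0.8 and 0.579 in Zfp57-/- libraries, where 29 reads remained, and the difference was -6.71 ± 0.90 (adjusted p 1.77e-09). Its JF1 allele was 67.0-fold lower, at 631 and 615 against 8.05 and 10.5 normalized counts, while the B6 allele was at 5.80 and 0.895 against 2.01 and 7.66.

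**Figure D4:**
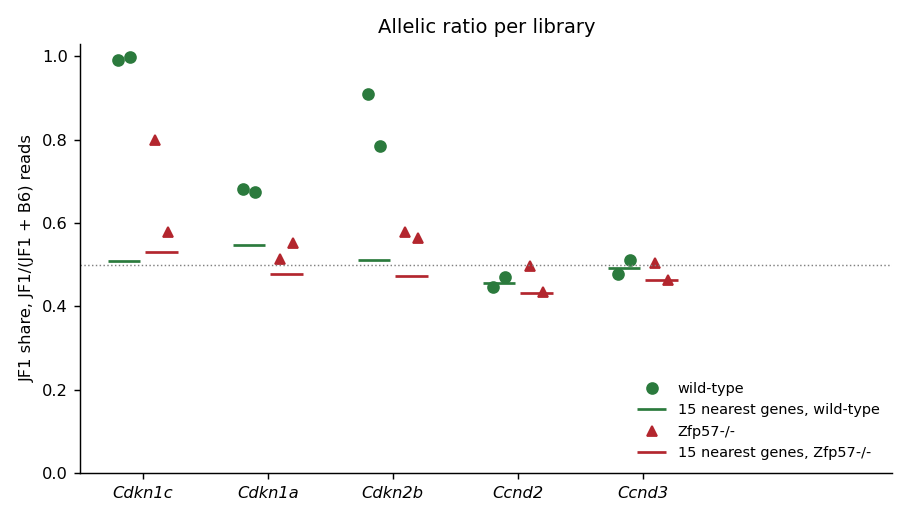
Allelic ratio, JF1/(JF1 + B6), in each library for Cdkn1c and the 4 testable members, with circles for wild-type, triangles for Zfp57-/- and lines at the mean of the median ratios of the 15 nearest tested genes. Cdkn1c, Cdkn1a and Cdkn2b lie above 0.67 in wild-type cells and lower in Zfp57-/- cells, while Ccnd2 and Ccnd3 lie near 0.5 in both.

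Around the members, 72 other genes of the cell cycle were read in 6 lists. Of these genes 35 passed the test, beside 27.6% of all genes tested. They were 27 higher and 8 lower genes, beside 13% and 14.6% of all genes. The broadest was the list of p53 targets, of which 13 of 18 rose, by 0.67 to 3.11 on the log2 scale, and the other 5 did not pass. The median of the list was 0.98 beside -0.01 for all genes, or 1.05 relative to all genes with Actb as the scale. On that scale 3 of the 18 passed as higher, beside 486 of all 19995 genes tested. Pmaip1, which encodes the death promoter NOXA, had 95 and 156 counts in wild-type against 1105 and 1106 in Zfp57-/- libraries (log2 fold change 3.11 ± 0.22 SE, adjusted p 1.1e-05). Phlda3, an inhibitor of AKT signalling, had 132 and 342 counts against 1164 and 1319 (2.40 ± 0.30, adjusted p 0.000323). The number of p53 targets called fell to 6 without Zfp57-/- replicate 1 and to 6 without Zfp57-/- replicate 2, with medians of 1.00 and 1.01, while the calls over all genes fell from 5522 to 2831 and 2985 in the same fits. Cdkn1a, the best known of the p53 targets, was not part of the list and changed less than its median.

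In the list of the RB family and E2F, 5 of 13 genes fell and 1 rose, beside 14.6% and 13% of all genes. Rb1, which encodes the retinoblastoma protein, had 737 and 831 counts in wild-type against 336 and 361 in Zfp57-/- libraries (log2 fold change -1.22 ± 0.19 SE, adjusted p 0.00134). Tfdp2, a dimerization partner of E2F factors, fell by 1.00 on the log2 scale (adjusted p 0.00342). Named after their values were seen, the related pocket proteins Rbl1 and Rbl2 were also lower, with -0.79 ± 0.19 and -1.10 ± 0.24. E2f4, an E2F of resting cells, was higher by 0.86 ± 0.25 (adjusted p 0.0305). This call did not hold with Actb as the scale, nor without Zfp57-/- replicate 1 or replicate 2. The list had 1 lower gene without Zfp57-/- replicate 1 and 1 without Zfp57-/- replicate 2.

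Calls among the kinases and later cyclins are read against the 27.6% of all genes that passed. Of 7 CDKs and activating subunits, Cdk2 (log2 fold change 0.84 ± 0.20 SE, adjusted p 0.0122) and Cdk1 (0.67 ± 0.19, adjusted p 0.0294) rose and the other 5 did not pass. The partners of the D-type cyclins, Cdk4 and Cdk6, named after their values were seen, had log2 fold changes of 0.02 ± 0.24 and -0.01 ± 0.20. Of 8 other G1/S genes Cks2, a CDK-binding subunit, rose by 0.65 ± 0.20 (adjusted p 0.0354). Of 14 G2/M genes 5 rose, beside 13% of all genes, with the smallest adjusted p for the mitotic kinase Aurka (0.99 ± 0.21, adjusted p 0.00705) and Ccnf (0.85 ± 0.20, adjusted p 0.0101), and the phosphatase gene Cdc25b fell by 1.54 (adjusted p 0.00171). With Actb as the scale the medians of these 3 lists, of 0.38, 0.25 and 0.46, turned to -0.27, -0.37 and -0.20, or 0.41, 0.31 and 0.48 relative to all genes, and Cdk2, Cdk1, Cks2, Aurka and Ccnf did not pass. Cdk2, Cdk1 and Cks2 also did not pass when Zfp57-/- replicate 1 or replicate 2 was left out, nor did Aurka and Ccnf without replicate 1. The medians in these fits were 0.38 and 0.40 for the CDK list and 0.47 and 0.46 for the G2/M list, close to those with all libraries.

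Among 12 known regulators of the members, 5 rose and 2 fell, beside 13% and 14.6% of all genes. Cbx7 and Tbx3, both known as repressors of the Cdkn2a locus, rose by 3.06 ± 0.23 (SE, adjusted p 1.48e-05) and 2.21 ± 0.22 (adjusted p 7.78e-05) on the log2 scale, while Cdkn2a rose as well. Bmi1, a Polycomb repressor of the same locus, fell by 0.91 (adjusted p 0.0182), and Smad3, which transmits TGF-beta signals to Cdkn2b, fell by 0.73 (adjusted p 0.0178), and neither passed when Zfp57-/- replicate 1 or replicate 2 was left out. Of the lists' genes, those with the profile closest to a called member over the 4 libraries were Tfdp2 for Cdkn1b and Pmaip1 for Cdkn2a, with root mean square differences of 0.10 and 0.13 in centred log2 counts. Myc was closest to both Ccne1 (0.18) and Cdkn2b (0.23), and Bmi1 to Ccnd1 (0.23).

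**Figure D5:**
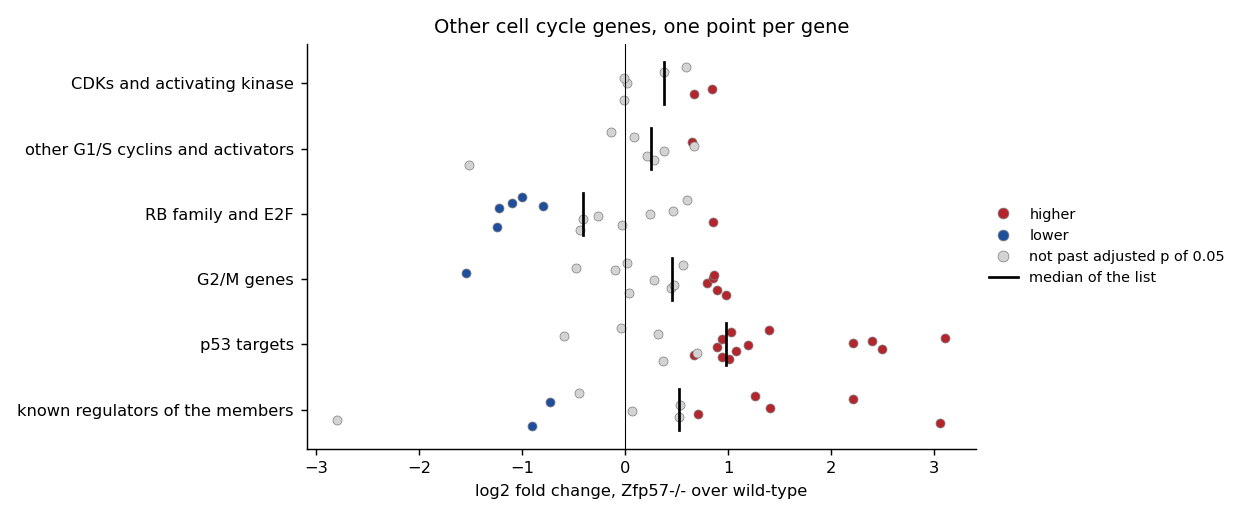
Log2 fold change of Zfp57-/- over wild-type cells for each gene of the 6 lists around the members, coloured where the adjusted p was under 0.05, with a line at each list's median. The p53 targets lie furthest to the right with a median of 0.98 and the RB and E2F genes to the left with -0.41. With Actb as the scale, which is not drawn, the medians of the other 4 lists lie below 0 but above the median of all genes (-0.68).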

How the data were processed

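Total RNA of 4 day 12-JB1 samples was sequenced from both ends with the strand kept. The authors trimmed reads with Trimmomatic 0.36, aligned them with STAR 2.5.4a to GRCm38, kept unique alignments, and deposited raw counts of fragments per GENCODE vM20 gene, assigned on the matching strand by featureCounts 1.6.0. A second deposited table holds counts per allele, from a SNP-masked genome split by SNPsplit into JF1 and B6 reads. Of 55602 genes, 54721 were matched to a symbol.

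Genes with more than 8 counts over the 4 libraries (19995) were compared by edgeR 4.0.16's robust quasi-likelihood test with TMM scaling in R 4.3.3, and Benjamini-Hochberg adjusted p under 0.05 were called. Bulk counts per library were 7663520 and 10225378 (wild-type) and 9545119 and 10337082 (Zfp57-/-). Allelic counts were 2837013 to 3826604. Allele counts were fitted in edgeR with library terms and an allele term per genotype, over 10977 autosomal genes that reached 10 normalized allelic counts in each wild-type library. Levels between genes were divided by exon length. DESeq2 1.42.0, other scalings and filters, a gene-length correction, a replicate block, other allelic minimums and leaving out each library were alternatives. Scripts were tested on simulated data, and figures were drawn with matplotlib 3.10.9 under Python 3.11.15.

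The members and lists were chosen with earlier results of these data known. Named genes are all members, Cdkn1c, Zfp57 and Actb, of each list the 2 called genes of smallest adjusted p per direction, and the list gene nearest in profile to each called member. Genes outside this rule are said to be named after their values were seen, and the motifs were chosen after the values were seen. Promoter sequences are RefSeq's (GRCm38.p6). Day 0 cells and ZFP57 binding data were not analysed here, and some results that this rule would name are not reported here.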

Additional observations from a re-analysis of the deposited data

Results flagged for a closer look

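The allelic effect differed between the genotypes, by the edgeR test of the difference itself, for 3 of the genes followed here. The log2 JF1 over B6 level changed from wild-type to Zfp57-/- cells by -0.87 for Cdkn1a, by -1.69 for Cdkn2b and by -6.71 for the imprinted Cdkn1c. For Cdkn1a the ratio was lower in each Zfp57-/- library than in each wild-type library, and the call held in the 9 alternatives tried. Cdkn2b rests on 53 wild-type reads, and its call was lost in 5 alternatives. Cdkn1c rests on 29 Zfp57-/- reads.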

How the results depend on the processing

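Over 13 alternatives of the bulk fit, Ccnd1, Ccnd2 and Cdkn1c kept their direction and their call in each. With Actb as the scale the members called were 4, of which 0 were higher by edgeR (2 at an unadjusted p of 0.05). Over all 19995 genes tested, that scale called 3480, of which 486 were higher and 2994 lower. On it the log2 fold changes of Cdkn1a and Ccnd3 reversed to -0.0048 and -0.32, and 13 of the list genes passed in place of 35. With the gene-length correction 5 members were higher. An adjusted p of 0.01 left 16 of the list genes and 2901 of all genes. Leaving out each library in turn gave 3 to 5 higher members, 2 to 5 lower members and 12 to 55 list genes, with 55 without wild-type replicate 2, 12 without Zfp57-/- replicate 1 and 13 without Zfp57-/- replicate 2. The calls over all genes moved alike in these fits, to 8051 and 9947 without wild-type replicate 1 and 2 and to 2831 and 2985 without Zfp57-/- replicate 1 and 2, against 5522. The genotype left with 1 library is assumed to vary like the other. Without division by length, Ccnd2 took 61.4% of the D-type cyclins in wild-type against 29.9% in Zfp57-/- cells, and Cdkn1c 53.8% and 3.45% of the Cip/Kip genes. The Cip/Kip total of Zfp57-/- over wild-type cells was 0.315, and 0.983 without Cdkn1c, an alternative chosen after seeing the data. The cause of these changes was not tested, beyond what the alternatives' own construction shows.

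In the allele fits, leaving out a library gave 1 to 3 biased members in wild-type, 0 to 1 in Zfp57-/- cells (Ccnd2, without Zfp57-/- replicate 1) and 1 to 2 members with a difference. DESeq2, a minimum of 20 allelic counts, no minimum and TMM over the allele columns each gave 1 with a difference, Cdkn1a. The minimum of 20 left Cdkn2b untested, and no value was given for it there. The near-zero bias of Ccnd3 ran from -0.124 (without wild-type replicate 2) to 0.0613 (without wild-type replicate 1) in wild-type cells and from -0.212 (without Zfp57-/- replicate 1) to 0.0285 (without Zfp57-/- replicate 2) in Zfp57-/- cells, and so reversed. The difference in bias also reversed, from -0.15 (without Zfp57-/- replicate 1) to 0.22 (without Zfp57-/- replicate 2) for Ccnd2, which was at -0.0325 without wild-type replicate 1, and from -0.186 (without Zfp57-/- replicate 1) to 0.0548 (without Zfp57-/- replicate 2) for Ccnd3, which was at 0.0448 under TMM and at 0.0243 without wild-type replicate 2.

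The libraries carry replicate numbers that the labels tie to no shared batch. Over 11732 genes, deviations from the group means correlated at 0.133 between libraries of the same number, with only 2 pairs. With the replicate block 8 members were called, Cdkn1a among them (0.63, adjusted p 0.0117), and 6984 genes in place of 5522. In the allele fit the block took the wild-type bias of Ccnd2 to an adjusted p of 0.0778. With 2 libraries per genotype, low counts limit Cdkn2a and Cdkn2c in bulk and left both without an allelic test, while 4 other members had no allelic read at any bulk level.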

Other observations

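Beyond the cell cycle lists, marker lists of other cell types were read for the same libraries. Of 12 endoderm markers 3 were higher in Zfp57-/- cells, beside 13% of all genes, and the other 9 did not pass. The higher ones included Dab2, an adaptor of extraembryonic endoderm (log2 fold change 1.17, adjusted p 0.0158). Amn, a receptor subunit of visceral endoderm, was also higher (2.06, adjusted p 0.0364). Its counts were 6 and 8 in wild-type against 22 and 39 in Zfp57-/- libraries. Ttr and Apoa1, named after their values were seen, were the only endoderm markers with negative log2 fold changes (-1.59 and -1.08). In sum the endoderm markers stood at 7306 and 12111 CPM in wild-type and 14053 and 20158 in Zfp57-/- libraries. With Actb as the scale 0 of them were called higher and 1 was called lower, beside 486 and 2994 of all 19995 genes tested. Of 4 mesoderm markers tested out of 5, T, the gene of the primitive streak factor Brachyury, rose by 2.27 and Kdr, a receptor of vascular precursors, fell by 1.67 on the log2 scale. Mesp1 had too few counts to be tested. The 5 endothelial markers included Pecam1 (2.07) and Tek (1.20) as higher, the neural crest markers Foxd3 as higher (3.56) and Tfap2a as lower (-3.33), and the 3 glial markers Olig2 as higher (1.71) and Aqp4 as lower (-3.29). The pluripotency markers Pou5f1 and Tdgf1, among those of smallest adjusted p, had at most 6 and 2 counts in a wild-type library and at least 2286 and 2301 in each Zfp57-/- library. Among neuron markers the log2 fold changes were -6.42 for Dcx and -4.23 for Map2, and among progenitor markers -5.16 for Hes5 and -3.00 for Fabp7, with adjusted p of 1.38e-05 or less in edgeR's test.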
